A study of Mus musculus with 8 samples.

Results

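The genes described here are 9 receptors, regulators and transcription factors of the Hedgehog pathway: the co-receptors *Gas1* and *Boc*, the receptor *Ptch1*, the transducer *Smo*, the inhibitors *Sufu* and *Hhip*, and the Gli factors *Gli1*, *Gli2* and *Gli3*. They were taken by gene symbol, in a rule that uses no measured value but was written with earlier results of these data known, from the 18605 genes quantified by RNA-seq in C3H10T1/2, a mouse mesenchymal cell line of embryonic origin from the C3H strain. All 9 passed the filter on low counts, which left 13470 genes. The cells carried either a non-target control (NC) or an shRNA against *Nap1l2* (KD-Nap1l2), delivered by lentivirus, and each line was sequenced before induction and after 7 days in an osteogenic medium with dexamethasone, ascorbic acid and β-glycerol phosphate (NC-7d and KD-Nap1l2-7d). Each of the 4 groups had 2 libraries of total RNA from bulk cultures, with 17420284 to 19427359 counts per library. Nothing in the sources used here says that the libraries of a group came from separate cultures, so the p-values measure only the spread between these libraries. An exact two-sided test of 2 libraries against 2 cannot go below 0.333, so tests come from models fitted across all genes.

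Hedgehog ligands bind *Ptch1*, and this relieves the block that *Ptch1* places on *Smo* at the primary cilium. *Smo* then frees the Gli factors from *Sufu*, so that *Gli2* and *Gli3* act more as activators and less as repressors, and *Gli1*, *Ptch1* and *Hhip* are themselves transcribed as readouts of the signal. In mesenchymal progenitors the pathway is known for promoting the osteoblast lineage, and C3H10T1/2 cells are a common model of that response.

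The libraries were checked against their labels by the targeted gene. *Nap1l2*, a histone chaperone of the nucleosome assembly protein family, had 3 and 3 counts in NC, 2 and 7 in KD-Nap1l2, 15 and 5 in NC-7d and 7 and 13 in KD-Nap1l2-7d. These counts overlapped between control and knockdown at both times. At so few counts a knockdown at the RNA level could be neither shown nor excluded. The paper that reported these data describes knockdown in this cell line by western blot and qPCR. KD-Nap1l2 below stands for the libraries labelled so. Of the cell type markers, 12 of 12 mesenchymal genes passed the filter on low counts, and their summed level ran from 194110 to 500420 normalised counts. The summed levels of the epithelial, endothelial, leukocyte and neural and glial lists stayed between 30.1 and 539.9 normalised counts, with 3, 2, 2 and 2 of their genes at 10 counts or fewer in every library. Of 7 osteoblast markers, *Sp7*, *Alpl* and *Ibsp* had 10 counts or fewer in every library, also after 7 days of induction, while *Runx2* had 974 to 1604 counts, *Dmp1* 75 to 569, *Phex* 40.9 to 367 and *Bglap* 0 to 22.5.

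The promoters of *Gas1*, *Gli3* and *Ptch1*, the members with a promoter sequence that passed the test during induction in the results that follow, are shown because these genes fell in the same comparison. Each runs from 250 bases before to 50 bases after the annotated start, on the strand of the gene, from RefSeq on GRCm38.p6, and the capitals mark GC boxes, the letters GGGCGG or their reverse complement CCGCCC.
Gas1, chr13:60177486-60177785, minus strand: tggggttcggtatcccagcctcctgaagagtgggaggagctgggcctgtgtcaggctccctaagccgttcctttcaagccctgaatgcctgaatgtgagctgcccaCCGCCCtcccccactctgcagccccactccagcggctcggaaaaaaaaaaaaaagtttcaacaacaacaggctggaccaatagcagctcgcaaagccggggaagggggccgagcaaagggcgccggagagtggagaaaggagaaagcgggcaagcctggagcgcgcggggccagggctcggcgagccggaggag
Gli3, chr13:15463473-15463772, plus strand: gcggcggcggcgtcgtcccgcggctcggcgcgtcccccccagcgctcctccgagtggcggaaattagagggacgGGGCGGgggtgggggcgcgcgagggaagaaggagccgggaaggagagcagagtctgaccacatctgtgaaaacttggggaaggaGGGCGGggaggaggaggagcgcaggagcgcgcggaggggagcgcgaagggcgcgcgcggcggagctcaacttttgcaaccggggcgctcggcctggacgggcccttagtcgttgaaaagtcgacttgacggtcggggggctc
Ptch1, chr13:63565686-63565985, minus strand: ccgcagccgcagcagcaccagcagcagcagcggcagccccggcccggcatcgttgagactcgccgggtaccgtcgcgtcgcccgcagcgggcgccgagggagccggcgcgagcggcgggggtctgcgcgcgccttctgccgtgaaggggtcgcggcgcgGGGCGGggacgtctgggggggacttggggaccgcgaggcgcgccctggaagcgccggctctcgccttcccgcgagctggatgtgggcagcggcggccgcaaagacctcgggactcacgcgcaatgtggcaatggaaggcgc
*Gas1* held its GC box at position -144 from the start, *Gli3* at -176 and -92, and *Ptch1* at -91. RefSeq promoters were matched for 7 of the 9 members, all but *Gli1* and *Boc*, and 6 of the 7, all but *Smo*, held at least 1 GC box on either strand, against 35.7% of 32851 mouse promoters of the same length. Neither the Gli consensus GACCACCCA nor its core CCACCCA, which lies within it, was found on either strand of the 7 windows, and 0.253% and 9.3% of all promoters held them. The TATA letters TATAAA were found in 0 of the 7 windows, against 13.6% of promoters. The letters AGAACA, an arm of the palindromic glucocorticoid receptor element, were found in 1 window, that of *Sufu*, against 19% of promoters. The GC content of the 7 windows ran from 56.3% to 76.3%, and the median over all promoters was 52.7%. These are matches of letters in a short window, and the windows of *Ptch1* and *Gli2* start inside the span of the annotated gene, which has several starts. The bases after the RefSeq start of *Gas1* were found in no transcript of the GENCODE annotation, so its position of -144 depends on the annotation used.

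Per unit of length, the 9 genes spanned a wide range of levels. In NC, the mean FPKM (fragments scaled to gene length and library size, as deposited) was 457 ± 88.8 for *Gas1*, 73.5 ± 4.71 for *Boc*, 48.8 ± 0.34 for *Smo*, 16.8 ± 0.13 for *Sufu*, 8.16 ± 0.76 for *Gli3* and 3.99 ± 0.47 for *Ptch1* (SD, n = 2). *Gli2* at 0.18 ± 0.021, *Gli1* at 0.11 ± 0.099 and *Hhip* at 0.03 ± 0.028 FPKM were far below the others, with 2 to 36 counts per library over all groups. *Gli3* was thus the Gli factor with by far the most RNA in these cells, and the co-receptors and *Smo* exceeded the receptor *Ptch1* in each of the 8 libraries.

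The order of the 6 higher genes changed in a single place between groups. *Boc* was above *Smo* in NC, while after induction *Smo* was above *Boc*, with 43.7 and 41.2 FPKM for *Smo* against 35.02 and 31.5 for *Boc* in NC-7d, and 38.9 and 37.3 against 33.0 and 28.1 in KD-Nap1l2-7d. In KD-Nap1l2 before induction these neighbours overlapped, at 58.5 and 48.9 FPKM for *Boc* and 55.9 and 43.3 for *Smo*. *Gli3* and *Ptch1* were likewise separate in each group except KD-Nap1l2, where *Gli3* had 10.0 and 6.54 and *Ptch1* 4.48 and 7.56 FPKM. The order among *Gli1*, *Gli2* and *Hhip* rests on few counts, and the libraries of *Gli1* and *Gli2* overlapped in NC.

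**Figure D1:**
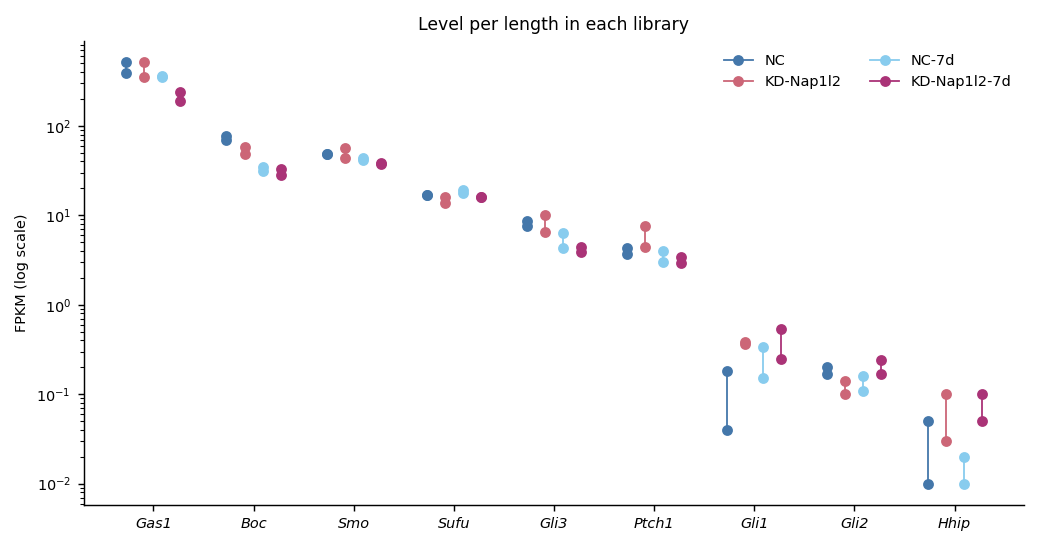
Level of the 9 genes per unit of length (FPKM, log axis) in each of the 8 libraries, with the 2 libraries of a group joined by a line and coloured by group. *Gas1* lies highest at 189.7 to 520.2 FPKM, and *Gli1*, *Gli2* and *Hhip* lie under 1 FPKM in every library.

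The first comparison asked how these genes changed over 7 days of osteogenic induction in control cells and in the libraries labelled KD-Nap1l2. The co-receptor *Boc* fell in both, and *Gas1*, *Ptch1* and *Gli3* also fell in the libraries labelled KD-Nap1l2. *Smo*, *Sufu* and the 3 genes with few counts did not pass the test in either. In bulk RNA, fewer cells of a type and less RNA per cell cannot be told apart.

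*Boc*, a cell surface protein that binds Hedgehog ligands together with *Ptch1*, had 6327.5 and 5695 normalised counts in NC and 2916 and 2505 in NC-7d. In the libraries labelled KD-Nap1l2 it had 4551 and 4162 before and 2681 and 2312 after induction. All 4 induced libraries lay below all 4 libraries before induction. The log2 fold change was -1.15 ± 0.15 (SE) in control cells, a 2.22-fold lower level (edgeR quasi-likelihood test, Benjamini-Hochberg adjusted p = 0.00519), and -0.80 ± 0.15 in KD-Nap1l2, 1.75-fold lower (adjusted p = 0.0126). The fall in control cells no longer passed without NC replicate 1, where the adjusted p was 0.0566 at a log2 fold change of -1.07.

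*Gas1*, a membrane-anchored co-receptor first known as a gene of growth-arrested cells, had 30128 and 22513 normalised counts in NC and 21298 and 19913 in NC-7d. It had 28519 and 20984 in KD-Nap1l2 and 10848 and 13944 in KD-Nap1l2-7d. The 2 KD-Nap1l2-7d libraries were the lowest of the 8, and the next, an NC-7d library, was at 19913. The log2 fold change over induction was -0.998 ± 0.22 in KD-Nap1l2, 2.00-fold lower (edgeR adjusted p = 0.025), against -0.35 ± 0.22 in control cells (adjusted p = 0.367). Without KD-Nap1l2 replicate 1 the change in KD-Nap1l2 was -0.76 and the adjusted p 0.0648.

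*Ptch1*, the ligand receptor and inhibitor of *Smo*, had 450.1 and 498 normalised counts in NC and 383 and 475 in NC-7d. It had 523 and 897 in KD-Nap1l2 and 362 and 330.0 in KD-Nap1l2-7d. The control libraries overlapped between the times, and KD-Nap1l2 replicate 2 was the highest of all. The log2 fold change was -1.04 ± 0.25 in KD-Nap1l2, 2.05-fold lower (edgeR adjusted p = 0.0319), and -0.14 ± 0.25 in control cells (adjusted p = 0.766). Without KD-Nap1l2 replicate 2 the change was -0.59 and the adjusted p 0.0888, and with the fit of the compared libraries alone the adjusted p was 0.0563. With limma on log2(FPKM + 1) and log2(FPKM + 0.1) it was 0.0893 and 0.086.

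*Gli3*, the Gli factor that acts mainly as a repressor when ligand is absent, had 1178 and 1078 normalised counts in NC and 615 and 867 in NC-7d. It had 1302 and 948 in KD-Nap1l2 and 651 and 557 in KD-Nap1l2-7d. Every induced library lay below every library before induction. The log2 fold change was -0.90 ± 0.21 in KD-Nap1l2, 1.86-fold lower (edgeR adjusted p = 0.0292), and -0.60 ± 0.21 in control cells, which did not pass (adjusted p = 0.124). The call in KD-Nap1l2 was lost without KD-Nap1l2 replicate 1, at -0.65 and an adjusted p of 0.0829, and with limma on log2(FPKM + 1) and log2(FPKM + 0.1), at 0.0593 and 0.0522.

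The transducer *Smo* had 3158 and 3167 normalised counts in NC, 2898 and 2611 in NC-7d, 3444 and 2918 in KD-Nap1l2 and 2503 and 2447 in KD-Nap1l2-7d. Its induced libraries lay below those before induction in both lines, with log2 fold changes of -0.20 ± 0.13 in control cells and -0.36 ± 0.13 in KD-Nap1l2 that did not pass (edgeR adjusted p = 0.389 and 0.102). *Sufu*, which holds Gli proteins in the cytoplasm, had 1406.5 and 1400.4 normalised counts in NC, 1653 and 1461 in NC-7d, 1277 and 1185 in KD-Nap1l2 and 1344 and 1352 in KD-Nap1l2-7d. It was the one well-measured member with a positive value in both lines, at 0.15 ± 0.12 and 0.13 ± 0.12 (edgeR adjusted p = 0.469 and 0.476).

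The readout genes *Gli1* and *Hhip* and the activator *Gli2* were close to the limit of detection. *Gli1* had 3 and 13 counts in NC, 25 and 24 in KD-Nap1l2, 22 and 10 in NC-7d and 36 and 16 in KD-Nap1l2-7d. *Gli2* had 24 and 22, 12 and 17, 13 and 19, and 29 and 20 counts in the same order. *Hhip*, a membrane protein that binds and sequesters Hedgehog ligands, had 6 and 2, 17 and 5, 2 and 2, and 13 and 6 counts. A library with no count of a gene can still hold up to 3 counts' worth of it, and this limit covers counting error only. For *Gli1*, the log2 fold change over induction was 1.09 ± 0.74 in control cells and 0.10 ± 0.63 in KD-Nap1l2 (edgeR adjusted p = 0.404 and 0.933).

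Counted over the members, 1 of 9 was called in control cells, downward, where 8.21% of all genes tested were called and 3.38% called downward. In KD-Nap1l2, 4 of 9 were called, all downward, where 14.2% of all genes were called and 7.36% called downward. The median log2 fold change of the 9 was -0.35 in control cells and -0.36 in KD-Nap1l2, beside -0.0035 and -0.0070 over all genes tested. In control cells the groups did not overlap for 5 members that were lower and 1 that was higher, and in KD-Nap1l2 for 5 lower and 2 higher, where 28.4% and 29.4% of all genes were lower and higher without overlap in control cells and 30.6% and 30.8% in KD-Nap1l2. Each of the 4 calls in KD-Nap1l2 was lost when either KD-Nap1l2-7d library was left out, which left 305 or 330 calls among all genes in place of 1912.

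**Figure D2:**
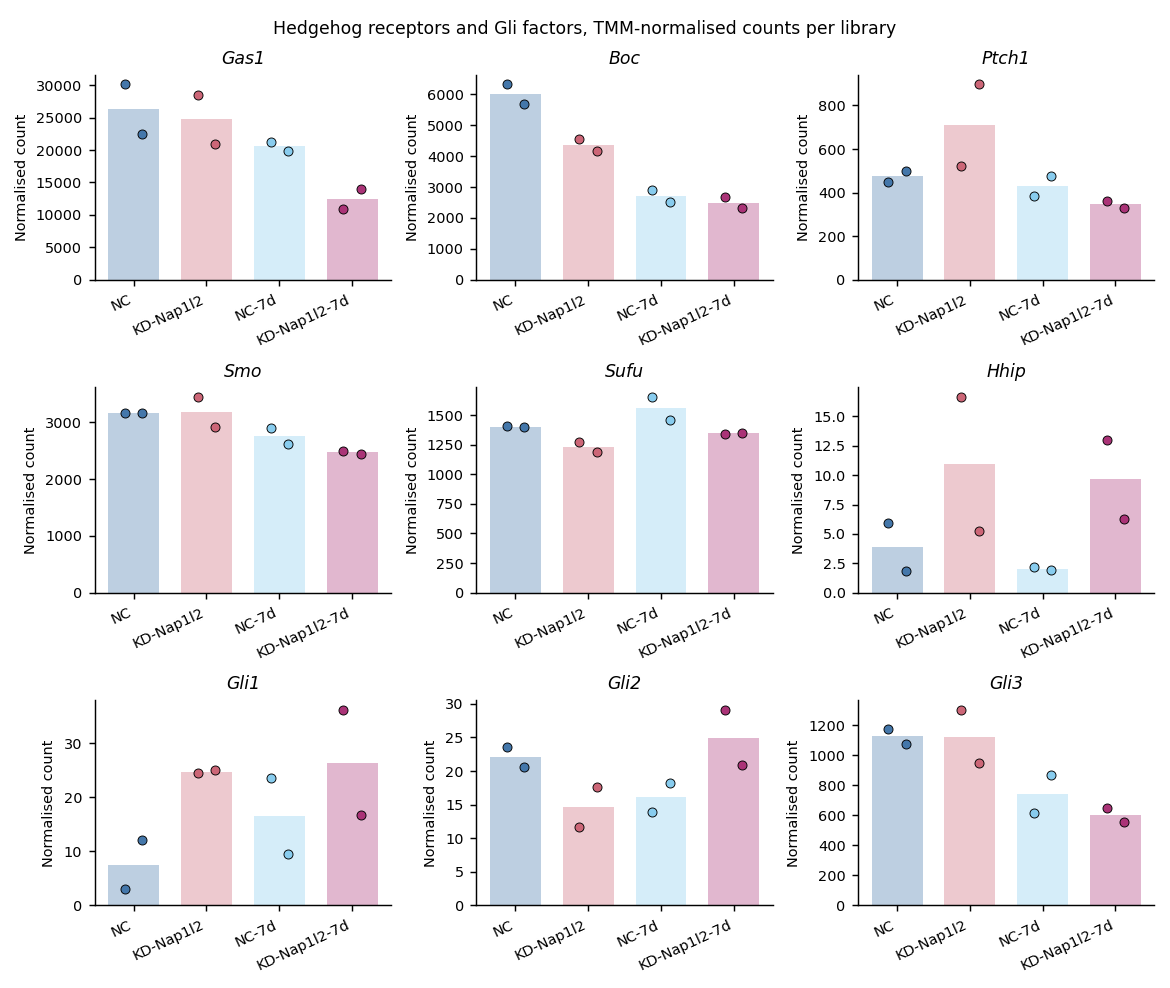
TMM-normalised counts of the 9 genes in each library (points), with the group mean (bars) from 0, 1 panel per gene with its own axis. *Boc* and *Gli3* are lower in all 4 induced libraries, and *Gas1* is lowest in the 2 KD-Nap1l2-7d libraries at 10848 and 13944.

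Levels of other gene groups moved over induction beside these members. The summed level of 8 cell cycle genes was 17809 and 20814 normalised counts in NC, 10263 and 19363 in NC-7d, 24597 and 22300 in KD-Nap1l2 and 11876 and 12134 in KD-Nap1l2-7d. It was lowest in NC-7d replicate 1 and both KD-Nap1l2-7d libraries, which also held the 3 lowest levels of *Ptch1* and of *Gli3*. Other members had the reverse order in NC-7d, where replicate 2 had the higher sum. There *Gas1* was lower in replicate 2 (19913 against 21298), as were *Boc* (2505 against 2916) and *Smo* (2611 against 2898). Of the 8 cell cycle genes, 3 (*Mki67*, *Top2a* and *Bub1*) fell in KD-Nap1l2 over induction, while none passed in control cells. Of 12 mesenchymal genes, 6 fell in KD-Nap1l2, among them *Col3a1* at -2.20 ± 0.27 and *Prrx1* at -0.72 ± 0.18. Another 4 had positive values there that did not pass, and 7.36% of all genes tested were called downward. In control cells 2 of the mesenchymal genes fell and 1 rose. Of 6 glucocorticoid response genes, 4 rose in control cells and 5 in KD-Nap1l2, and their sum ran from 26245 to 28557 in the induced libraries against 2758 to 4236 before. Of 6 adipocyte markers, *Fabp4* and *Pparg* rose in both lines, by 4.09 and 1.09 in control cells (edgeR adjusted p = 0.00192 and 0.00965) and by 3.12 and 0.91 in KD-Nap1l2 (adjusted p = 0.00298 and 0.0132), while *Cebpa* and *Lpl* fell in KD-Nap1l2. The sum of this list ran from 2928 to 3885 normalised counts in the induced libraries against 1115 to 2113 before. By counts, the osteoblast factor *Runx2* fell by 0.58 in KD-Nap1l2 (edgeR adjusted p = 0.0334). Its value of -0.46 in control cells did not pass (adjusted p = 0.0924). The mean FPKM of *Runx2* did not fall, at 15.39 in KD-Nap1l2 and 15.53 in KD-Nap1l2-7d, and it was higher in NC-7d than in NC. The fall of *Runx2* thus depended on the measure, and the cause was not tested. The part of these groups in the change of the members was not tested.

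The second comparison set the libraries labelled KD-Nap1l2 beside the control at each time. No member passed the test at either time. Before induction, 0 of 9 members and 0.0817% of all genes were called by edgeR, 3 members (*Ptch1*, *Gli1* and *Boc*) and 13.7% of genes had an unadjusted p under 0.05, and DESeq2 called 0 members and 454 genes. *Gli1* had more counts in both KD-Nap1l2 libraries than in either NC library, with a log2 fold change of 1.68 ± 0.71 (edgeR adjusted p = 0.355). Leaving out NC replicate 1 gave 1.02 for *Gli1*, and leaving out NC replicate 2 gave 3.01. *Ptch1* was also higher in both, at 0.58 ± 0.25 (adjusted p = 0.353), and this rested on the high replicate 2. The value of *Ptch1* was 0.14 without that library, and 0.92 with it as the lone KD-Nap1l2 library (replicate 1 left out). *Boc* was lower in both KD-Nap1l2 libraries, at -0.46 ± 0.14 (adjusted p = 0.222). The summed level of the 8 cell cycle genes was also higher in both of these libraries than in either NC library, although 0 of the 8 passed the test here and *Pcna* had a value of 0.0023 ± 0.22. Their part in the values of *Gli1* and *Ptch1* was not tested.

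Over the 9 members, 2 were higher and 3 lower in KD-Nap1l2 without overlap, where 22.0% and 21.2% of all genes were. The median log2 fold change was -0.0036, against 0.011 over all genes tested. *Smo*, *Gli3* and *Gas1* had values of 0.0085 ± 0.13, -0.0036 ± 0.21 and -0.089 ± 0.22, and their libraries overlapped.

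After 7 days, edgeR called 0 of 9 members and 0.0% of all genes between KD-Nap1l2-7d and NC-7d. At an unadjusted p under 0.05 there were 2 members and 1057 genes (7.85%), and DESeq2 called 0 members and 82 genes. These 2 members were *Gas1*, at -0.73 ± 0.22 and 1.66-fold lower (edgeR adjusted p = 0.519), and *Hhip*, with 13 and 6 counts against 2 and 2 (adjusted p = 0.62). Over all libraries, *Hhip* exceeded 6 counts only in replicate 1 of KD-Nap1l2 (17) and of KD-Nap1l2-7d (13). With only the compared libraries fitted, 8 members were tested and *Hhip* had no value. *Gas1* was lower in both KD-Nap1l2-7d libraries than in either NC-7d library, and the value stayed between -0.93 and -0.56 when any 1 of these 4 libraries was left out. *Ptch1* had a value of -0.31 ± 0.25, *Gli3* -0.30 ± 0.21 and *Boc* -0.12 ± 0.14 (adjusted p = 0.831, 0.803 and 0.907). The groups did not overlap for 2 higher and 4 lower members, where 21.0% of all genes were higher and 21.0% lower, and the median log2 fold change was -0.15 over the members and -0.0056 over all genes.

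**Figure D3:**
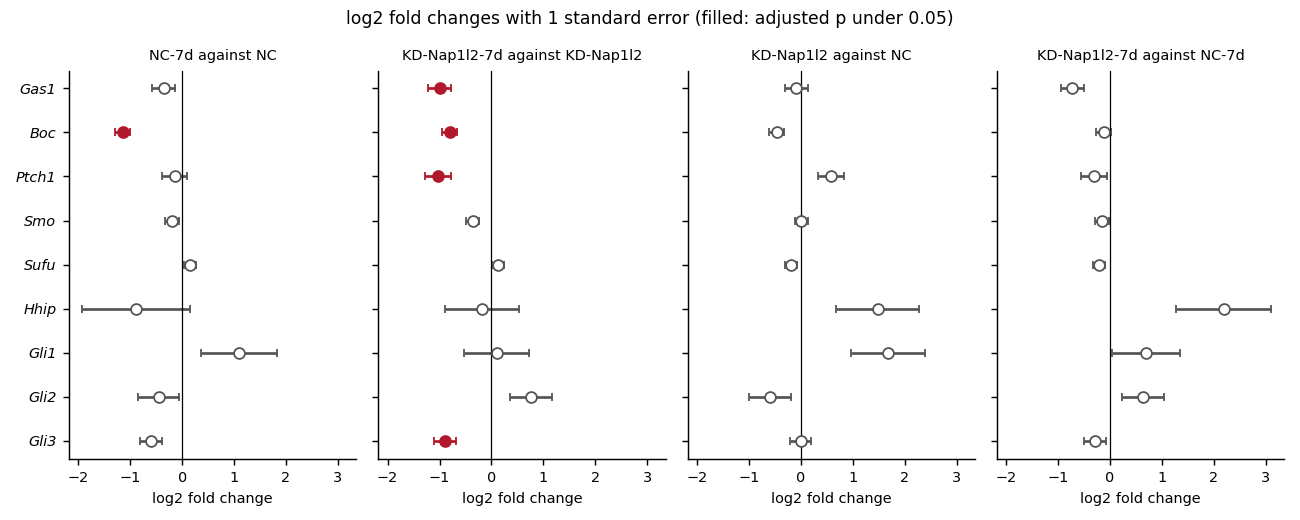
log2 fold change with its standard error for each gene in the 4 comparisons of groups of 2 libraries, first group minus second, with filled points where the edgeR adjusted p was under 0.05. The filled points are *Boc* at -1.15 in control cells and *Gas1*, *Boc*, *Ptch1* and *Gli3* between -1.04 and -0.80 in KD-Nap1l2 over induction.

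Whether the response to induction differed between the lines was tested by the difference of their log2 fold changes, KD-Nap1l2 minus control. edgeR called 0 of 9 members and 0.0% of all genes, with 1 member and 948 genes (7.04%) at an unadjusted p under 0.05, and DESeq2 called 0 members and 100 genes. The difference was -0.89 ± 0.35 for *Ptch1*, -0.64 ± 0.31 for *Gas1*, 1.22 ± 0.57 for *Gli2* and 0.35 ± 0.20 for *Boc* (edgeR adjusted p = 0.681, 0.721, 0.717 and 0.77). The falls of *Gas1*, *Ptch1* and *Gli3* that passed in KD-Nap1l2 alone are therefore not shown to differ from the changes in control cells. For *Smo* the difference was -0.16 ± 0.18 and for *Sufu* -0.019 ± 0.16.

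The deposited estimates per transcript divided *Sufu* between a pair of RefSeq transcripts in a way that varied between groups. The share of NM_015752.3 in the FPKM of *Sufu* was 46.8% and 41.4% in NC, 27.8% and 25.4% in KD-Nap1l2, 52.7% and 51.2% in NC-7d and 51.2% and 59.9% in KD-Nap1l2-7d. It was lowest in both KD-Nap1l2 libraries before induction, and after induction the groups were close to each other. The other transcript, NM_001025391.2, held 11.6 and 10.2 FPKM in KD-Nap1l2 against 8.90 and 9.91 in NC, so that the low share came mostly with less of NM_015752.3, at 4.46 and 3.47 against 7.82 and 6.99 FPKM. For *Smo* the share of XM_006505106.3 stayed between 57.1% and 61.0% in all 8 libraries. Shares of other members differed widely within a group. That of XM_006517163.3 in *Ptch1* was 47.1% and 5.56% in KD-Nap1l2, and that of XM_006516552.3 in *Gli3* was 12.6% and 50.5% in NC-7d. The differences in the shares of *Sufu* were not tested. Such shares are estimates from reads that mostly fit both transcripts, and the files give no error for them.

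**Figure D4:**
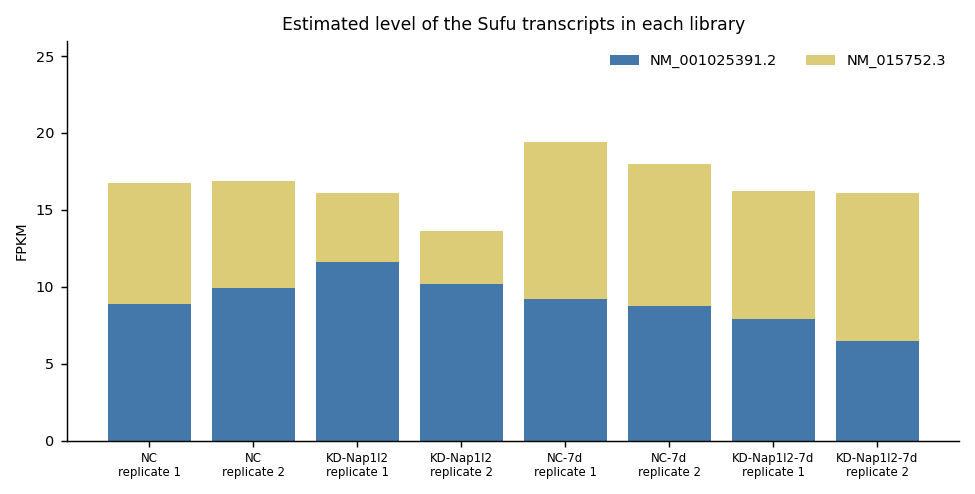
Deposited FPKM of the 2 *Sufu* transcripts, stacked, in each of the 8 libraries, with no error given by the files. The share of NM_015752.3 is smallest in the 2 KD-Nap1l2 libraries, at 27.8% and 25.4%.

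The rest of the pathway was followed in 5 lists of ligands, other receptors, transducers, cilium proteins and target genes. Of 76 genes listed, 74 were in the table and 66 passed the filter on low counts. The ligands *Ihh* and *Dhh* had at most 4 and 3 counts in any library. *Shh* was listed but was not among the genes quantified, so these data give no level for it. Over induction, 1 of the 66 rose and 4 fell in control cells, and 1 rose and 10 fell in KD-Nap1l2, with medians of -0.012 and -0.18. Over all genes tested, 8.21% and 14.2% were called, so the number of calls in both directions together was near the background in both lines. Downward calls alone made up 3.38% and 7.36% of all genes tested. The 4 and 10 of 66 that fell were a higher share than this in both lines. Whether these shares differ beyond the spread was not tested. Between KD-Nap1l2 and control, edgeR called 0 of the 66 at either time, and 0 for the difference of the induction responses.

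Among the other receptors and co-receptors, 1 of 4 tested fell in control cells and 3 of 4 fell in KD-Nap1l2. *Cdon*, the closest relative of *Boc*, had 1050 ± 76.8 normalised counts in NC, 680 ± 209 in NC-7d, 1203 ± 38.7 in KD-Nap1l2 and 504 ± 100 in KD-Nap1l2-7d (SD, n = 2). Its log2 fold change over induction was -1.25 ± 0.22 in KD-Nap1l2 (edgeR adjusted p = 0.0118) and -0.63 ± 0.22 in control cells (adjusted p = 0.128). *Gpc6*, a cell surface glypican, fell in both lines, by 1.30 on the log2 scale in control cells and by 2.17 in KD-Nap1l2 (adjusted p = 0.00537 and 0.000667). *Gpc4*, another glypican, fell by 0.64 in KD-Nap1l2 (adjusted p = 0.0447), and *Lrp2* had a mean of 0.02 FPKM. The 3 co-receptors *Gas1*, *Boc* and *Cdon* thus each fell in KD-Nap1l2, and *Boc* alone of the 3 passed in control cells.

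Of the ligand release list, *Scube3*, a secreted protein of the family that helps to release lipid-modified ligand, fell by 1.91 in KD-Nap1l2 (edgeR adjusted p = 0.0161), the 1 call among 6 tested. *Disp1*, the transporter that releases ligand from the cell, had a mean of 15.2 FPKM over the 8 libraries, and *Scube2* 9.44 and *Hhat* 1.48 FPKM. None of the 21 tested genes of *Smo* and Gli transduction passed in either line, among them those with the highest levels, *Gnas* (737 FPKM), *Prkar1a* (144), *Csnk1a1* (130) and *Prkaca* (63.5), which encode a G protein subunit and the kinases that phosphorylate Gli proteins or their regulatory subunit. Of the 16 cilium genes, *Ift80*, a subunit of the intraflagellar transport machinery, fell by 1.01 and *Tctn1*, of the ciliary transition zone, by 0.56 in KD-Nap1l2 (adjusted p = 0.0109 and 0.0442). *Tulp3*, *Ift52* and *Kif3a* had higher mean levels, at 33.6, 18.8 and 16.2 FPKM, and did not pass.

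Of 19 tested target genes, 1 rose and 3 fell in control cells, and 1 rose and 4 fell in KD-Nap1l2. *Foxf1*, a forkhead factor, fell by 1.35 in control cells and by 0.96 in KD-Nap1l2 (edgeR adjusted p = 0.021 and 0.0447). *Sfrp1*, a secreted Wnt inhibitor, fell by 1.39 and 0.998 (adjusted p = 0.007 and 0.0154). *Igf2*, a growth factor, fell in control cells by 1.63, from 16880 ± 1680 to 5440 ± 1090 normalised counts (SD, n = 2, adjusted p = 0.0116). In KD-Nap1l2 *Igf2* had 3930 ± 827 before and 3036 ± 980 after induction, and the value of -0.37 ± 0.26 did not pass (adjusted p = 0.365). Neither the level before induction nor the response passed the test between the lines (adjusted p = 0.0617 and 0.554).

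The related factors *Osr1* and *Osr2* fell in KD-Nap1l2 by 1.15 and 1.45 (edgeR adjusted p = 0.029 and 0.0173). Their values in control cells were -0.78 and -0.76 and did not pass (adjusted p = 0.124 and 0.142). *Foxf2*, the relative of *Foxf1*, rose by 0.72 in control cells (adjusted p = 0.0476), and *Spp1*, the bone matrix protein osteopontin, rose by 1.41 in KD-Nap1l2 (adjusted p = 0.0446). In the other line neither passed. *Foxf2* was at 0.39 in KD-Nap1l2 (adjusted p = 0.175) and *Spp1* at 1.19 in control cells (adjusted p = 0.0974). *Ccnd1*, a cyclin with a mean of 175 FPKM, did not pass in either line. The list thus held genes that moved in opposite directions, and most of its members did not pass.

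**Figure D5:**
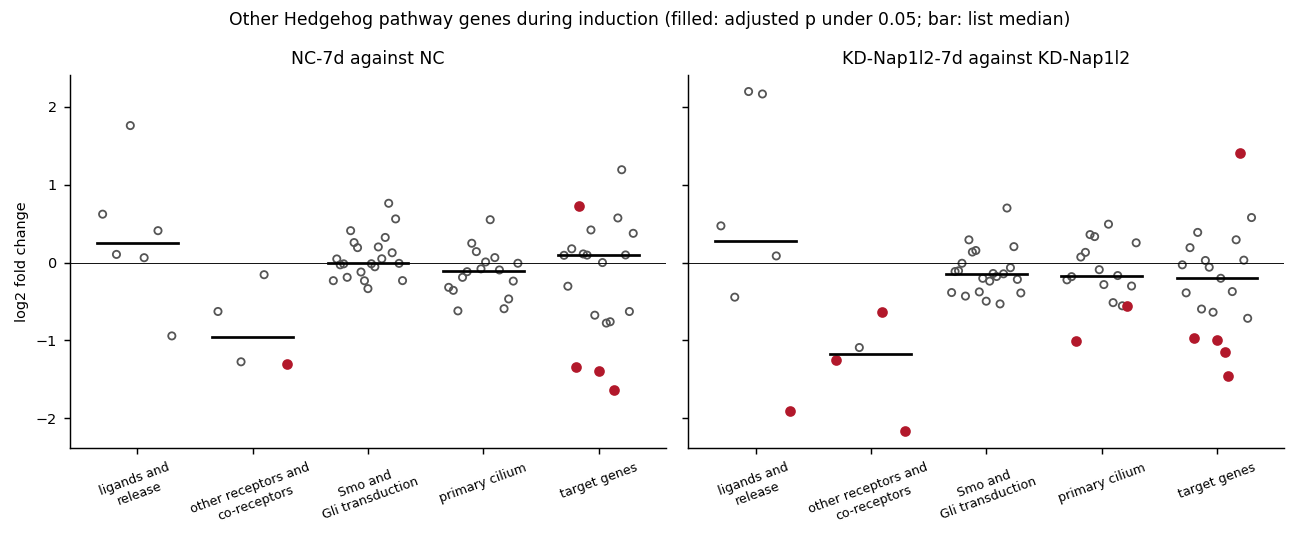
log2 fold change over 7 days of induction for the tested genes of the 5 lists (points), in control cells (left) and in KD-Nap1l2 (right), with the list median as a bar and filled points where the edgeR adjusted p was under 0.05. The other receptors and co-receptors have the lowest medians, -0.95 and -1.17, over 4 genes. Both medians rest partly on *Lrp2*, which had 0 to 16 counts per library and values of -1.27 ± 1.58 and -1.09 ± 1.09.

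As a description over the 8 libraries, the genes whose log2 level followed *Ptch1* most closely were *G2e3*, *Tmem131l*, *Vars2*, *Hspg2* and *Papss1*, with Pearson r from 0.967 to 0.974. For *Gli1* they were *Reps1*, *Lamb1*, *Ago3*, *Uhrf1bp1* and *Pcdh19*, with r from 0.931 to 0.959. The 8 points share their groups and libraries, those of *Gli1* rest on 3 to 36 counts, and the 5 closest of all the genes compared are close by selection.

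Some counts could hold reads of other genes. On GRCm38.p6, *Gas1* lies at chr13:60174405-60177535 on the minus strand as a single exon, and 589 of its 2961 exonic bases overlap the opposite-strand gene *Gm48488*. *Boc* lies at chr16:44485045-44558870 and *Ptch1* at chr13:63508328-63573460, both on the minus strand, with no exonic overlap with another gene. *Gli3*, at chr13:15463723-15730026 on the plus strand, shares 188 of 9589 exonic bases with *Gm6556* on the other strand, and *Gli1*, at chr10:127329882-127341579 on the minus strand, shares 265 of 4995 with *Gm47200* and 62 with *Arhgap9*. Whether the counting used the strand is not given in the sources used here, so reads in these stretches cannot be assigned with certainty.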

How the data were processed

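RNA was extracted with Trizol and libraries were made by BGI, and per the labels the submitters' processing notes name BWA, Bowtie2, RSEM and the build GRCm38.p6, with no role or version. The deposited files give, for each of the 8 libraries, estimated counts of genes and of transcripts that were not normalised, and these are not whole in at least 1 library for 41.1% of genes (tolerance 0.005). FPKM values, scaled by the authors to length and library size, stand beside them. Their tables of comparisons hold log2 fold changes, p-values and q-values from DESeq2 and were not used.

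Estimated counts of 18605 genes were rounded, normalised by TMM (normalised counts are at the mean library size) and filtered by filterByExpr to 13470 genes. All libraries were fitted with edgeR 4.0.16 (quasi-likelihood test, R 4.3.3), and calls are Benjamini-Hochberg adjusted p under 0.05 over all genes tested. The SE is the log2 fold change over the square root of F. Alternatives used DESeq2 1.42.0, limma 3.58.1 on log2(FPKM + 1) and log2(FPKM + 0.1), RLE size factors, other filters and libraries left out. The scripts were tested on simulated data. All 9 members, every called gene of the pathway lists and up to 4 of each list with the highest FPKM are named. *Nap1l2* is named as the targeted gene, and the 5 genes most alike *Gli1* and *Ptch1* need a mean of 50 normalised counts. Members and lists were chosen with earlier results of these data known.

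Libraries of the same replicate number did not deviate together (Pearson r of deviations from the group means from -0.061 to 0.10 over 6 pairs of groups). Libraries of a group differed beyond sampling noise. Gene positions and promoters are from RefSeq, and strands and exons from GENCODE vM21, both on GRCm38.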

Additional observations from a re-analysis of the deposited data

Results flagged for a closer look

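*Ptch1* and *Gli2* stood out because the libraries labelled KD-Nap1l2 lay on opposite sides of the control at the 2 times. *Ptch1* had 523 and 897 normalised counts against 450.1 and 498 in NC before induction, and 362 and 330.0 against 383 and 475 in NC-7d after it. *Gli2* had 12 and 17 counts against 24 and 22 before, and 29 and 20 against 13 and 19 after. Of all genes tested, 22.0% were higher and 21.2% lower without overlap in KD-Nap1l2 before induction, and 21.0% each way after it. How many of them switched sides was not counted. The difference of the induction responses, KD-Nap1l2 minus control, was -0.89 ± 0.35 on the log2 scale for *Ptch1* and 1.22 ± 0.57 for *Gli2*. Neither passed the edgeR test of that difference (adjusted p = 0.681 and 0.717). With 1 library left out, the difference ran from -1.23 to -0.45 for *Ptch1* and from 0.947 to 1.535 for *Gli2*.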

How the results depend on the processing

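The 36 results were the log2 fold changes of the 9 members in the 4 comparisons of groups. Over induction, 1 of them was called in control cells and 4 in KD-Nap1l2, and 0 between the lines. Most of the values counted next thus had no call to lose, and the losses all come from these few calls. With other settings, 270 of 277 values for 36 results kept their direction and their side of the threshold, 5 lost a call and 2 changed sign. With 1 library left out, 121 of 144 did, 12 lost a call, 1 gained one and 10 changed sign. Over induction in KD-Nap1l2, the members called numbered 2 in place of 4 with limma on log2(FPKM + 1) and also 2 on log2(FPKM + 0.1), where *Ptch1* and *Gli3* no longer passed, and 0 to 3 with 1 library left out. The members called ran from 0 to 1 in control cells over induction, with 0 without NC replicate 1, and from 0 to 1 between KD-Nap1l2 and NC, with 1 without KD-Nap1l2 replicate 1. The cause was not tested.

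Changes of sign were seen for values that passed no test. Between KD-Nap1l2 and NC, the lowest and highest log2 values with 1 library left out were -0.12 and 0.12 for *Smo*, -0.25 and 0.21 for *Gli3* (0.060 without NC replicate 1) and -0.33 and 0.14 for *Gas1* (0.12 without KD-Nap1l2 replicate 2). Over induction in control cells they were -0.31 and 0.0027 for *Ptch1* and -1.49 and 0.11 for *Hhip*. Over induction in KD-Nap1l2 they were -0.56 and 0.54 for *Gli1* and -0.80 and 0.88 for *Hhip* (0.24 without KD-Nap1l2-7d replicate 2), and *Hhip* was at 0.014 and 0.10 with limma on log2(FPKM + 1) and log2(FPKM + 0.1).

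With the replicate number as a block, the members called were 0 and 0 between KD-Nap1l2 and control before and after induction, 1 and 4 over induction and 0 for the difference of the responses, as without it. The numbers are not known to pair the libraries. The genes called between KD-Nap1l2 and NC depended on the setting: 11 in the edgeR fit, 4 with the replicate block, 4 with at least 10 counts in every library, 160 with no filter, 454 with DESeq2, 33 and 18 with limma on the FPKM values with pseudocounts of 1 and 0.1, and 0 with only the compared libraries (1494 at an unadjusted p under 0.05). With at least 10 counts in every library *Gli1* and *Hhip* had no value, and DESeq2 left 1 member without an adjusted p in 4 of the 5 comparisons.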
